A study of Saccharomyces cerevisiae with 6 samples.

Results

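The genes described here are 10 genes of glycerol metabolism and of the osmotic response in budding yeast, Saccharomyces cerevisiae. They were chosen by name and found by their systematic names in a table of 7126 features, and all 10 were present. They are GPD1 (YDL022W), GPD2 (YOL059W), GPP1 (YIL053W) and GPP2 (YER062C), which make glycerol, STL1 (YDR536W), which takes it up, GCY1 (YOR120W) and DAK1 (YML070W), which oxidise it through dihydroxyacetone, GUT1 (YHL032C) and GUT2 (YIL155C), which burn it as a carbon source, and HOG1 (YLR113W), the kinase of the osmotic response.

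RNA was measured in 3 libraries of a wild type (WT, strain label W303) and 3 libraries of a mutant labelled mms21RINGD, which carries an altered MMS21, the gene of a SUMO ligase. Such a ligase couples the modifier SUMO to its target proteins. The strain label of the mutant repeats the allele name, and which part of the gene is altered is not given in the sources used here. The series concerns this ligase and ribosome biogenesis. Both groups were harvested in exponential growth at an optical density of 0.6 in rich glucose medium supplemented with amino acids, with no osmotic or other treatment named, and ribosomal RNA was removed before sequencing.

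Yeast keeps its internal osmotic pressure by accumulating glycerol. Dihydroxyacetone phosphate from glycolysis is reduced to glycerol 3-phosphate and then dephosphorylated to glycerol, a route that also reoxidises NADH. High external osmolarity is sensed by the HOG (high osmolarity glycerol) pathway, whose mitogen-activated protein kinase Hog1 acts on the channel Fps1, on metabolic enzymes and on transcription. On non-fermentable medium the flow is turned round, and glycerol enters the cell and is oxidised in the mitochondria.

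WT replicate 1 differed from the other WT libraries over the transcriptome as a whole, and in these genes to unequal degrees. Its level was 3.35 times the mean of the other WT libraries for GPD1, 1.13 times for GCY1 and 0.861 times for GPD2. Over the 6731 features tested, the median absolute difference in log2(RPKM + 1) was 0.206 and 0.234 between WT replicate 1 and WT replicates 2 and 3. It was 0.0776 between WT replicates 2 and 3, 0.0597 to 0.0736 between mutant libraries, and 0.21 to 0.236 between WT replicate 1 and the mutant libraries. RPKM is the read count divided by the gene's length and the library's total, so levels can be set side by side between genes. The libraries held 20887808 to 24625301 reads in WT and 19264738 to 24034030 in the mutant, and 3 reads in a gene of 1 kb came to 0.122 to 0.156 RPKM. MMS21 itself lay at 2.18 to 3.23 RPKM in WT and 12.9 to 16.6 RPKM in the mutant, a level that does not show which part of the gene was read. What is compared throughout is the share of a transcript in its library, and more RNA in each cell cannot be told apart from more cells that make it.

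The upstream sequences of the 5 genes that rose most are shown first. They carry matches to motifs known for stress and osmotic control, as do those of GPD2 and GUT1, which rose less. Each stretch is read 5′ to 3′ on the strand of its gene, from the RefSeq R64 assembly of strain S288C, not from the strains sequenced, and capitals mark the matches. They are AGGGG, the stress response element bound by the activators Msn2 and Msn4, ACGTCA, the core of the site of the repressor and activator Sko1, and GGGACAAA, the site of the activator Hot1, each searched on both strands.
GCY1, chrXV:550810-550854, plus strand: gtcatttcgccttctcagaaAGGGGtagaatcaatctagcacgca
GUT2, chrIX:53841-53885, minus strand: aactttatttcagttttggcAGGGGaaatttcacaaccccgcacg
GPD1, chrIV:411475-411598, plus strand: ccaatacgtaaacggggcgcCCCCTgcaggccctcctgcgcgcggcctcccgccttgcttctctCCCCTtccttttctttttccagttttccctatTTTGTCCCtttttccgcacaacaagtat
GPP2, chrV:280910-280976, minus strand: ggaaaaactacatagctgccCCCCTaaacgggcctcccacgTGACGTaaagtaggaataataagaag
STL1, chrIV:1507805-1507854, plus strand: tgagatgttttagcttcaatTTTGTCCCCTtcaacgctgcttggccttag

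In STL1 the Hot1 match and the stress response element overlap and form 1 run of capitals. The Hot1 match of GPP2 and the Sko1 core matches of STL1 and GUT2 lie outside the stretches shown, 457, 427 and 517 bases before the start codon. GPD1 held 3 stress response elements, 330, 286 and 34 bases before the start codon, the last outside the stretch shown, and its Hot1 match stood 254 bases before it. Within 600 bases before the start codon, 7 of the 10 genes held AGGGG, against 39.7% of 5999 protein-coding genes. GPP1, DAK1 and HOG1 held none. ACGTCA was found upstream of GPP2, STL1 and GUT2, 3 of the 10, against 16.2% of all genes. GGGACAAA was found upstream of GPD1, GPP2 and STL1, 3 of the 10, against 1.78% of all genes. A match is a description of the letters and not a measured binding site, and for GPP1, GUT1, GUT2 and HOG1 the 600 bases run into the neighbouring coding gene. The Sko1 core match of GUT2, at 517 bases, lies beyond the 272 bases between GUT2 and that neighbour. GUT1 has 306 bases before its neighbour, with 1 AGGGG beyond them at 586 bases and 1 within them at 180.

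**Figure D1:**
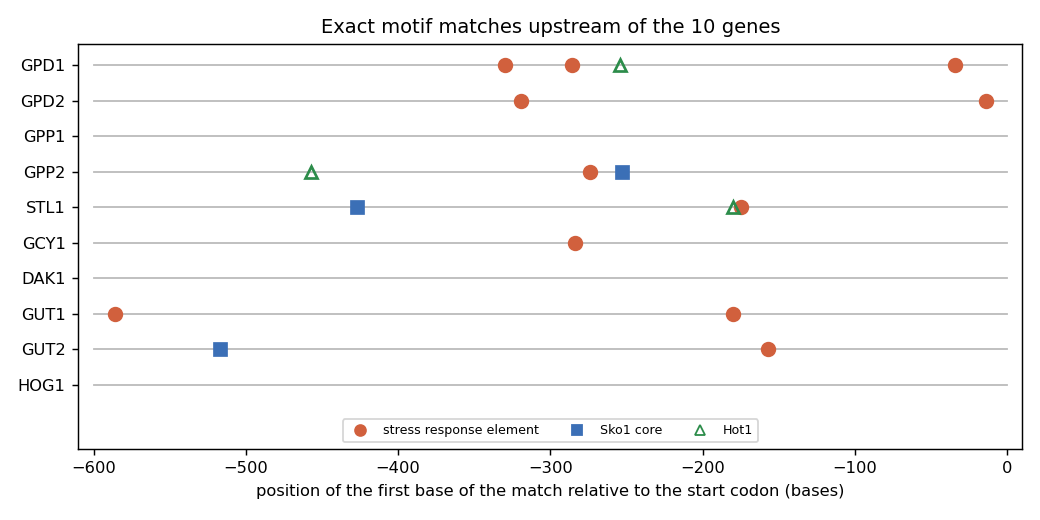
Exact matches on either strand to the stress response element, the Sko1 core and the Hot1 site within 600 bases upstream of each of the 10 genes, plotted by the distance of their first base from the start codon. GPP1, DAK1 and HOG1 have no match in this window, and the Hot1 symbol is found for GPD1, GPP2 and STL1.

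In glycerol synthesis the paralogs of each step changed by different amounts, though in the balance of GPD1 to GPD2 WT replicate 1 was close to the mutant. Transcripts of GPD1 and GPP2, the members of each pair known to be induced by osmotic stress, rose in the mutant, those of GPP1 fell, and GPD2 rose no more than the median of all features. Each step is catalysed by a pair of isoenzymes from separate genes, and all 4 genes are single coding exons.

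GPD1 encodes the glycerol 3-phosphate dehydrogenase that limits glycerol production under osmotic stress (chrIV:411825-413000, plus strand, R64). It measured 95.4, 29.9 and 27.2 RPKM in WT replicates 1, 2 and 3, and 145, 143 and 149 RPKM in mms21RINGD replicates 1, 2 and 3. The groups did not overlap, and WT replicate 1 lay between the other WT libraries and the mutant, at 3.35 times the mean of WT replicates 2 and 3. The means differed 2.87-fold, and the log2 fold change on the log2(RPKM + 1) scale was 1.75 ± 0.45 (SE; limma, n = 3 per group, Benjamini-Hochberg adjusted p = 0.0175 over all features). Without WT replicate 1 the fold was 5.11 and the log2 fold change 2.32 ± 0.05 (limma adjusted p = 6.79e-07). Leaving out any of the other 5 libraries took the adjusted p to between 0.0517 and 0.0599, with log2 fold changes of 1.43 to 1.76.

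GPD2 encodes the second isoenzyme, known for its role in redox balance when oxygen is low (chrXV:217126-218448, plus strand). It measured 50.4, 57.5 and 59.7 RPKM in the WT libraries and 63.8, 67.6 and 66.6 RPKM in the mutant libraries. Here WT replicate 1 was the lowest of the 6 libraries, and the groups did not overlap. The log2 fold change of 0.24 ± 0.08 passed the test (limma adjusted p = 0.0398) but equalled the median of all tested features, which was 0.24. With median-of-ratios scaling it was -0.0087 (limma adjusted p = 0.956) and with quantile normalization 0.039, neither called, and the call was also lost when WT replicate 2 or any single mutant library was left out.

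GPP1 encodes the more abundant glycerol 3-phosphate phosphatase (chrIX:255115-255867, plus strand). It was by far the highest of the 10 genes, with 1053, 1199 and 1166 RPKM in WT and 866, 902 and 883 RPKM in the mutant, above 97.3% and 97.1% of all features. Every mutant library lay below every WT library, and WT replicate 1 was again the WT library nearest the mutant. The mean went from 1139.5 ± 76.6 to 884 ± 18.1 RPKM (SD, n = 3 each), -0.36 ± 0.06 on the log2 scale (limma adjusted p = 0.00287), or -0.60 relative to the median of all features. With quantile normalization it was -0.10 and not called (limma adjusted p = 0.161).

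GPP2, its stress-induced paralog (chrV:279930-280682, minus strand), measured 56.2, 32.6 and 28.9 RPKM in WT and 118, 133 and 130.2 RPKM in the mutant. The groups were well apart, with WT replicate 1 at 1.83 times the mean of the other WT libraries. The difference was 3.24-fold, 1.73 ± 0.23 on the log2 scale (limma adjusted p = 0.00164), or 2.01 ± 0.07 and 4.14-fold without WT replicate 1. In WT its level lay far under that of GPP1, and it stayed under it in the mutant.

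A ratio of paralogs within a library does not depend on a factor applied to the whole library. Quantile normalization can change it and was not run for the ratios. GPD1 made up 65.4%, 34.2% and 31.3% of the summed RPKM of GPD1 and GPD2 in WT replicates 1, 2 and 3 and 69.5%, 67.9% and 69.2% in the mutant libraries. WT replicate 1 was therefore close to the mutant in this balance, and GPD1 was the lower paralog in WT replicates 2 and 3 only. The log2 ratio of GPD1 to GPD2 was -0.39 ± 1.14 in WT and 1.14 ± 0.06 in the mutant (SD, n = 3 each), a difference of 1.53 ± 0.66 (SE), or 2.18 without WT replicate 1. GPP2 made up 5.07%, 2.65% and 2.41% of its pair in WT and 12%, 12.9% and 12.8% in the mutant, a difference in the log2 ratio to GPP1 of 2.12 ± 0.35. Both ratios gave the smallest two-sided p that an exact permutation test of 3 against 3 can give, 0.1 (0.133 adjusted over 4 ratios), which does not reach 0.05.

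The sums of the pairs differed in direction. GPD1 and GPD2 together measured 146, 87.4 and 86.8 RPKM in WT and 209, 211 and 216 RPKM in the mutant, 1.98-fold more. GPP1 and GPP2 together measured 1109, 1232 and 1195 RPKM in WT and 983, 1035 and 1014 RPKM in the mutant, 0.857-fold. Neither pair of groups overlapped (exact permutation p = 0.1 for each sum). The sums were added after the data were seen. How far reads could be shared between paralogs depends on the read length, which is not given in the labels. The coding sequences of GPP1 and GPP2 were identical at 623 of 753 aligned positions (82.7%) and those of GPD1 and GPD2 at 862 of 1168 (73.8%), and neither pair shared any stretch of 50 bases. No stretch longer than 26 bases is identical in the coding sequences of GPP2 and GPP1, and which mismatches were allowed in mapping is not given. This longest identical run, in chromosome V at bases 70 to 95 of the GPP2 coding sequence, is shown:
GPP2 and GPP1: atcatctctcaaccagccattgctgc

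**Figure D2:**
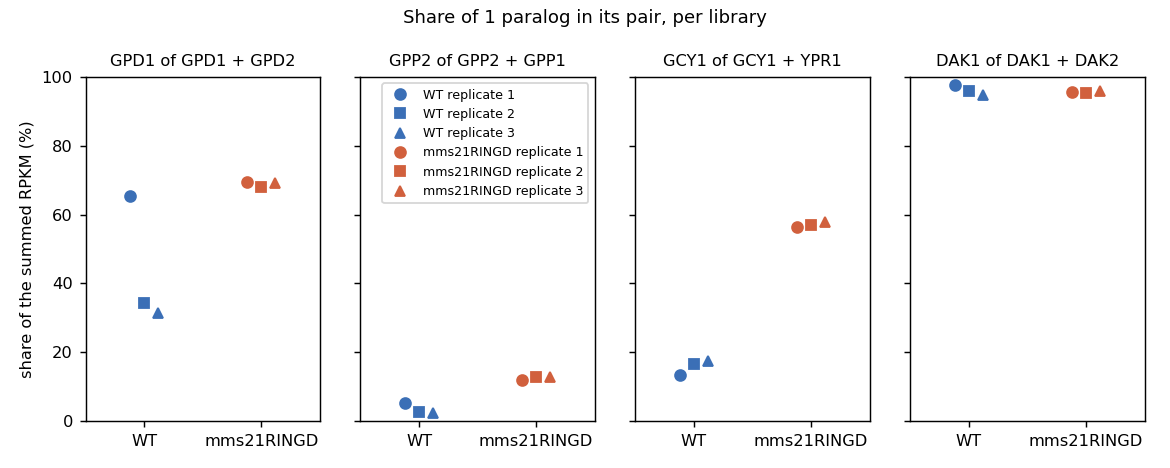
Share of 1 paralog in the summed RPKM of its pair, in percent, in each of the 6 libraries (symbols mark the replicate). GPD1 reaches 65.4% in WT replicate 1 and 67.9% to 69.5% in the mutant, GCY1 goes from at most 17.4% to at least 56.3%, and DAK1 stays at 94.9% or above in every library.

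The transcript of the glycerol importer was low in both groups and higher in the mutant. STL1, the proton symporter that brings glycerol into the cell and is repressed by glucose (chrIV:1508005-1509714, plus strand), measured 3.32, 3.02 and 2.58 RPKM in WT and 9.87, 9.66 and 8.54 RPKM in the mutant. These values rest on 140, 108 and 96 reads in WT and 325, 397 and 294 in the mutant, with exact 95% Poisson intervals from 77.8 to 165 reads over the WT libraries and 261 to 438 over the mutant libraries, which cover counting error only. The groups did not overlap, and WT replicate 1 stood at 1.19 times the mean of the other WT libraries. The difference was 3.14-fold, 1.38 ± 0.11 on the log2 scale (limma adjusted p = 0.000204), and 0.85 with a pseudocount of 5 RPKM. Even in the mutant the gene stayed above no more than 20.7% of all features.

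The dihydroxyacetone route gave the largest difference among the 10 genes. GCY1, an aldo-keto reductase that works as a glycerol dehydrogenase (chrXV:551114-552052, plus strand), measured 11.7, 10.8 and 9.85 RPKM in WT and 104, 110.0 and 120.0 RPKM in the mutant. All 3 WT libraries lay close together, so that WT replicate 1 hardly stood apart here, at 1.13 times the mean of the others. The difference was 10.3-fold, 3.25 ± 0.09 on the log2 scale (limma adjusted p = 7.83e-06), and the gene moved from above 32.7% of all features in WT to above 84.4% in the mutant. DAK1, the kinase that returns dihydroxyacetone to glycolysis as its phosphate (chrXIII:133475-135229, plus strand), measured 68.8, 48.6 and 45.5 RPKM in WT and 99.6, 99.9 and 106 RPKM in the mutant. Its groups did not overlap either, but WT replicate 1 lay at 1.46 times the mean of the other WT libraries. DAK1 rose 1.88-fold, 0.92 ± 0.15 on the log2 scale (limma adjusted p = 0.00354), or 1.10 ± 0.05 without WT replicate 1.

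Both enzymes have a paralog. YPR1, the paralog of GCY1, measured 74.8, 54.1 and 46.8 RPKM in WT and 81.2, 83.3 and 86.8 RPKM in the mutant, 0.53 ± 0.16 on the log2 scale (limma adjusted p = 0.0314), and it did not pass under median-of-ratios or quantile scaling, with no filter on low values, or when any library but WT replicate 1 was left out. YPR1 was the higher of the pair in every WT library and GCY1 in every mutant library, with the log2 ratio of GCY1 to YPR1 at -2.42 ± 0.23 in WT and 0.41 ± 0.05 in the mutant (SD, n = 3 each). The difference of 2.83 ± 0.13 (SE) had an exact permutation p of 0.1, the smallest possible. DAK2, the paralog of DAK1, measured 1.71, 1.97 and 2.44 RPKM in WT and 4.53, 4.85 and 4.56 RPKM in the mutant. The log2 ratio of DAK1 to DAK2 was 4.72 ± 0.56 in WT and 4.45 ± 0.09 in the mutant (SD, n = 3 each), and the difference of -0.27 ± 0.33 (SE) turned to 0.03 without WT replicate 1 (exact permutation p = 0.6 over all libraries). The groups overlapped in that ratio.

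Both genes for the use of glycerol as a carbon source rose, GUT2 by 5.22-fold and GUT1 by 1.46-fold. GUT2, the FAD-dependent glycerol 3-phosphate dehydrogenase of the mitochondrial inner membrane (chrIX:51759-53708, minus strand), measured 11.6, 5.16 and 6.23 RPKM in WT and 37.4, 40.2 and 42.2 RPKM in the mutant. WT replicate 1 was 2.03 times the mean of the other WT libraries but still far below every mutant library. The difference was 7.01-fold without WT replicate 1, and with all libraries 2.31 ± 0.25 on the log2 scale (limma adjusted p = 0.0007). GUT1, the glycerol kinase (chrVIII:36379-38508, minus strand), measured 15.7, 12 and 11.3 RPKM in WT and 19.3, 19.2 and 18.5 RPKM in the mutant. Its groups did not overlap, with WT replicate 1 once more nearest the mutant. The log2 fold change was 0.52 ± 0.12 (limma adjusted p = 0.0122), which is 0.29 above the median of all features, and with quantile normalization it was 0.16 and not called (limma adjusted p = 0.105). GUT1 was therefore above GUT2 in every WT library and below it in every mutant library.

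HOG1 was the member that did not pass the test. The gene (chrXII:371620-372927, plus strand) measured 115, 103 and 91.9 RPKM in WT and 111, 104 and 109 RPKM in the mutant. The groups overlapped, since WT replicate 1 was the highest of the 6 libraries and WT replicate 3 the lowest. The log2 fold change was 0.07 ± 0.09 (limma adjusted p = 0.521; exact permutation p = 0.6), and it was 0.15 without WT replicate 1 (limma adjusted p = 0.056) and -0.18 with median-of-ratios scaling (limma adjusted p = 0.054). These are transcript levels, and the kinase is known to be switched on by phosphorylation, which was not measured.

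**Figure D3:**
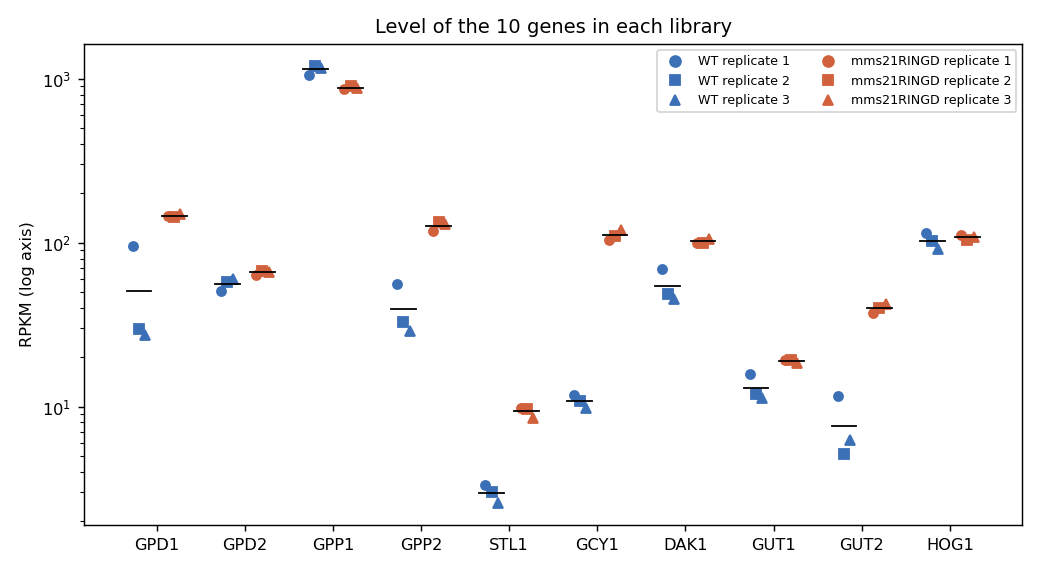
RPKM of the 10 genes in each of the 6 libraries on a log axis, with black lines at the group means and symbols for the replicate. GPP1 lies highest and falls, HOG1 overlaps between the groups, and WT replicate 1 (blue circle) lies between the other WT libraries and the mutant in 8 genes, most clearly in GPD1 at 95.4 RPKM.

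Read together, 8 of the 10 genes were called higher and 1 lower. The background in this comparison is high: 42.7% of the 6731 tested features were called higher and 10.9% lower. A call with a log2 fold change of at least 1 was made for 5 members, GCY1, GUT2, GPD1, GPP2 and STL1, and for 8.38% of all tested features. Every mutant library lay above every WT library for 8 members, against 50.1% of all features, and below for 1 member, against 14.3%. The median log2 fold change of the 10 genes was 1.15 and that of all features 0.24. With median-of-ratios scaling 7 members were called higher and 1 lower, while the calls over all features went from 2875 higher and 732 lower to 1729 and 1794, and with quantile normalization 6 members were called higher against 1369 and 2330 over all features. In 8 of the 10 genes WT replicate 1 lay between the other WT libraries and the mutant, a count that was not made over all features. The exceptions were GPD2, where it was below both, and HOG1, where it was above both. What set this library apart was not tested.

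**Figure D4:**
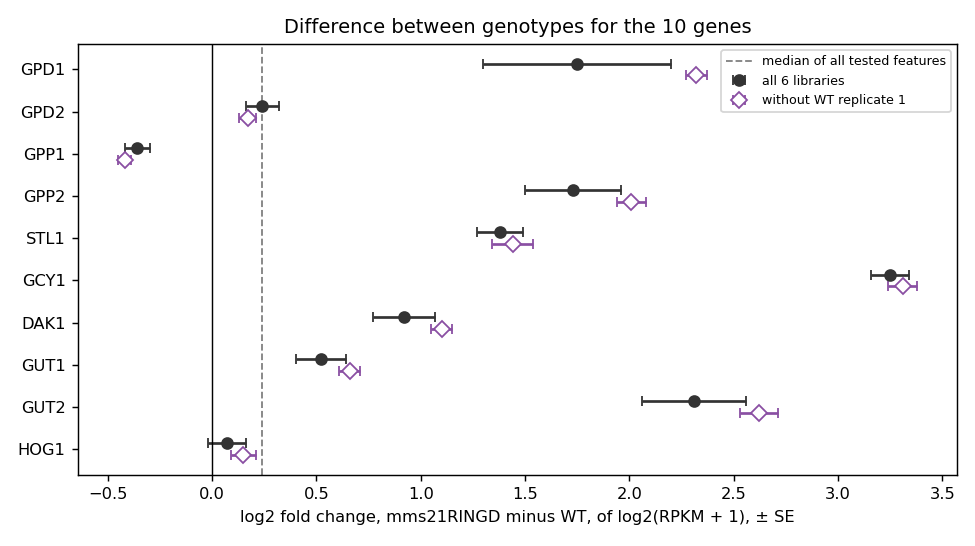
Log2 fold change of each of the 10 genes with its standard error, mms21RINGD minus WT, from the limma fit to all 6 libraries (filled) and without WT replicate 1 (open), with the median of all tested features as a dashed line. GPD1 moves from 1.75 to 2.32 and its error from 0.45 to 0.05, while GCY1 moves from 3.25 to 3.31.

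The profiles nearest to the members that changed most were found by the root mean square distance between log2(RPKM + 1) values, each gene centred on its own mean, over the 6 libraries. The distance takes in the size of the group difference as well as the place of WT replicate 1, and the libraries are shared by all genes compared. Nearest to GCY1 was HXT5, a hexose transporter gene expressed at slow growth, at a distance of 0.035, with 1.66 to 2.15 RPKM in WT and 25.2 to 29.9 RPKM in the mutant. SPS100, a spore wall gene, and GPG1 followed at 0.103 and 0.11. The distances were computed with a pseudocount of 1 RPKM only, and the nearness of HXT5 depends on it. With it the log2 fold changes of GCY1 and HXT5 were 3.25 and 3.29. They were 3.36 and 3.78 with a pseudocount of 0.1 RPKM, and 2.88 and 2.24 with 5 RPKM. Nearest to GUT2 was AGX1, an alanine:glyoxylate aminotransferase gene, at 0.09, with 9.08, 4.67 and 4.77 RPKM in WT and 29.8, 32.9 and 31.3 RPKM in the mutant. NNR1, which encodes a repair enzyme of damaged NADH, and ADR1, an activator of genes for non-fermentable carbon sources, followed at 0.127 and 0.137.

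The rest of the pathway was read from 5 lists with 49 genes, all of them measured. Of these, 34 were called higher and 1 lower, beside the 42.7% and 10.9% of all features, and with quantile normalization 23 were higher and 8 lower.

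Among 7 genes of glycerol transport and enzyme paralogs 5 rose, beside 42.7% of all features. With quantile normalization 2 of the 7 were called higher and 1 lower, beside 1369 and 2330 of the 6731 features tested. FPS1, the channel that lets glycerol out, measured 34.3, 29.7 and 29.8 RPKM in WT and 31.8, 31.7 and 31.6 RPKM in the mutant (log2 fold change 0.02 ± 0.07, limma adjusted p = 0.816), and other scalings gave lower calls, -0.22 by median of ratios and -0.27 by quantiles (limma adjusted p = 0.00922 and 0.00484). The genes of its activators rose: ASK10 (also RGC2) went from 10.6 to 14.2 RPKM in WT to 26.9 to 29.1 RPKM in the mutant, with a log2 fold change of 1.17 ± 0.11, and RGC1 by 0.73 ± 0.11 on the same scale (limma adjusted p = 0.000386 and 0.00261). DAK2 and GUP2, a gene linked to glycerol uptake, rose by 0.90 ± 0.13 and 0.67 ± 0.14 (log2) from low levels, and both calls were lost with quantile normalization (limma adjusted p = 0.141 and 0.687).

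Of 14 signalling genes of the HOG pathway upstream of the kinase 9 rose, beside 42.7% of all features. The list median was 0.29, close to that of all features. STE11, a kinase of the Sho1 branch, went from 6.47 to 8.43 RPKM in WT to 14.4 to 14.9 RPKM in the mutant (log2 fold change 0.92 ± 0.10). SSK22, a kinase of the Sln1 branch, rose by 0.84 ± 0.09 on the log2 scale, OPY2, a membrane anchor, by 0.85 ± 0.12, and YPD1, the phosphorelay protein, by 0.40 ± 0.06 (limma adjusted p from 0.000577 to 0.00232 for these 4 genes). With median-of-ratios scaling YPD1 was no longer called (0.15), and 5 of the 14 were called higher and 1 lower. With quantile normalization 7 of the 14 were called higher and 3 lower, beside 1369 and 2330 of the 6731 features tested. Without WT replicate 1, 13 of the 14 were called higher, beside 57.3% of the 6741 features then tested.

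Among 7 genes for phosphatases of the pathway, their adaptor NBP2 and the effector kinase RCK2, 3 rose. That is close to the 42.7% of all features called higher, and the list median of 0.10 lay below the 0.24 of all features. PTP2, a tyrosine phosphatase that acts on Hog1, measured 7.89, 5.40 and 6.29 RPKM in WT and 18.7, 19.8 and 18.6 RPKM in the mutant, 1.43 ± 0.13 on the log2 scale (limma adjusted p = 0.000286). On the same scale RCK2 rose by 0.65 ± 0.07 and NBP2 by 0.50 ± 0.06, the latter not called with quantile normalization, and PTC2 measured 0.10 ± 0.06 on the log2 scale (limma adjusted p = 0.192). With median-of-ratios scaling 3 of the 7 were called higher and 2 lower.

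Of 10 transcription factor genes 6 rose and 1 fell, beside 42.7% and 10.9% of all features. With quantile normalization 3 of the 10 were called higher and 2 lower, beside 1369 and 2330 of the 6731 features tested. ADR1 rose most, from 9.24, 5.04 and 4.74 RPKM in WT to 30.1, 30.3 and 30.2 RPKM in the mutant, 2.14 ± 0.22 on the log2 scale (limma adjusted p = 0.000502), with WT replicate 1 again the highest WT library. On the log2 scale SMP1, a factor under Hog1, rose by 0.93 ± 0.09, MSN4 by 0.76 ± 0.09, and RSF2, a factor of growth on glycerol, by 0.61 ± 0.08, the last not called with quantile normalization. INO2 and INO4, partners in 1 activator of phospholipid genes, went in opposite directions, at -0.33 ± 0.06 and 0.53 ± 0.07 (limma adjusted p = 0.00662 and 0.00144), though INO4 was not called with quantile normalization (0.15). HOT1, whose motif was matched upstream of GPD1, GPP2 and STL1, measured 6.24, 4.12 and 4.82 RPKM in WT and 5.72, 7.19 and 7.06 RPKM in the mutant, and the log2 fold change of 0.35 ± 0.16 did not pass (limma adjusted p = 0.101). Without WT replicate 1 it was 0.48 and passed (limma adjusted p = 0.0134), and with quantile normalization it was -0.26.

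All 11 osmotically induced genes outside glycerol metabolism rose, beside 42.7% of all features called higher. Their log2 fold changes ran from 0.76 to 6.43, with a list median of 3.78. The list was chosen with earlier results of these data known, so the count is a description and not a test. SIP18, GRE1, HSP12 and ALD3 had the smallest p-values, with log2 fold changes from 4.45 to 6.43, above that of any glycerol gene. In WT replicates 1, 2 and 3 SIP18 rested on only 10, 6 and 5 reads and GRE1 on 31, 37 and 30. The log2 fold change of SIP18 was 4.88 with a pseudocount of 5 RPKM and 7.05 with 0.1 RPKM. CTT1, the cytosolic catalase gene, rose 16.1-fold. GRE2, a methylglyoxal reductase gene, resembled GPD1 in that WT replicate 1 lay near the mutant, with 62.6, 33.8 and 30.2 RPKM in WT and 67.4, 67.8 and 70.3 RPKM in the mutant (log2 fold change 0.76 ± 0.25, limma adjusted p = 0.0425). It did not pass under median-of-ratios or quantile scaling, with no filter on low values, with no variance trend, or when any library but WT replicate 1 was left out. ENA1 belongs to a tandem set of near-identical sodium pump genes, so its count among the 11 is uncertain.

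**Figure D5:**
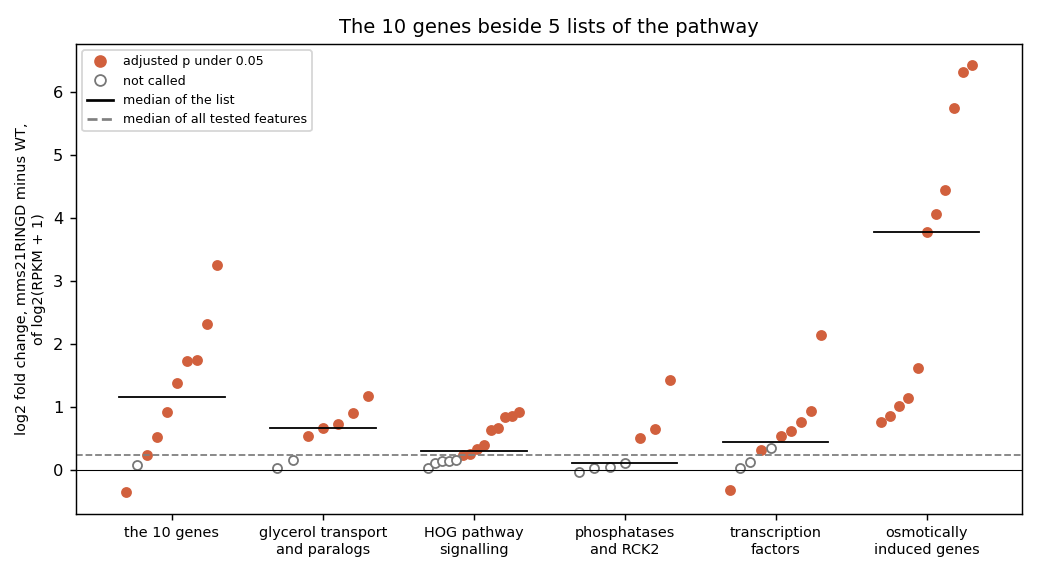
Log2 fold change, mms21RINGD minus WT, of the 10 genes and of the 49 genes in 5 lists, filled where the limma adjusted p was under 0.05, with a black line at each list's median and a dashed line at the median of all tested features. The medians run from 0.10 for the phosphatases and RCK2 to 3.78 for the osmotically induced genes, beside 1.15 for the 10 genes.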

How the data were processed

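The authors deposited RPKM values for 7126 features in 6 libraries, with 1 column per library, assigned by title. Per the submitters' processing notes the build was sacCer3 and the tools included TopHat2 2.0.8, CASAVA 1.8.2 and, in a role not stated, edgeR 3.8.6. How reads were counted, and whether by strand, is not given in the sources used here. Sense and antisense reads can therefore not be separated. The labels do not say whether replicates were separate cultures, and the p-values then reflect only how far these 6 libraries differ, which may be technical. Names, positions and lengths came from RefSeq R64, which matched 6162 features. Value times length was a whole multiple of 1 read per library, within 0.02 of a read, for 99.8% of values, which gave the reads and depths.

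All features averaging 1 RPKM or more were fitted together as log2(RPKM + 1) with limma 3.58.1 (R 4.3.3, variance trend, no covariate, two-sided), adjusted by Benjamini-Hochberg, with a call at adjusted p under 0.05. A fold change on this scale understates the change of low genes. Single values were compared with exact two-sided permutation tests, which cannot go below 0.1 here. Alternatives were other pseudocounts, filters, scalings and variance models, voom weights, a replicate block and leaving out each library. The genes and lists were chosen with earlier results of these data known. From each list up to 4 genes with the smallest p were named, with any called against the list's direction. Outside that rule, FPS1, YPR1, HOT1, INO4, CTT1, GRE2 and ENA1 were chosen after seeing their values. Alignments used biopython 1.88.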

Additional observations from a re-analysis of the deposited data

How the results depend on the processing

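Of 169 recomputed log2 fold changes of the 10 genes, 152 kept their direction and their side of the threshold. GCY1, GPP2, STL1, DAK1 and GUT2 did so under every alternative in which they were tested (STL1 lies under the filter at 10 RPKM). With median-of-ratios scaling the log2 fold changes of GPD2, HOG1 and PTC2 turned to -0.0087, -0.18 and -0.15, and with quantile normalization those of HOG1 and PTC2 to -0.082 and -0.097. The same scalings took FPS1 to -0.22 and -0.27, and quantile normalization HOT1 to -0.26. Leaving out 1 library moved HOG1 between -0.01 and 0.15 and FPS1 between -0.013 and 0.088. Calls over all features were 1729 higher and 1794 lower with median-of-ratios scaling and 1369 and 2330 with quantile normalization, where 0 of the 10 genes were called lower by limma, also at an unadjusted p under 0.05, against 1 by limma as deposited and with voom weights. Leaving out 1 library gave 1848 to 3865 higher and 433 to 1029 lower. The summed log2 fold of GPP1 and GPP2 was -0.22, or -0.47 with median-of-ratios scaling. The log2 ratio of DAK1 to DAK2 differed by -0.27, by 0.02 with a pseudocount of 1 RPKM and by -0.52 to 0.03 when 1 library was left out. With the replicate number as a block 2250 features were higher and 549 lower, and GPD2 was the member that lost its call (limma adjusted p = 0.0625). Deviations from the group mean correlated at r = -0.14, 0.05 and -0.10 over features between libraries of the same number. Between libraries of different numbers r ran from -0.09 to 0.21. With 3 libraries per group these values cannot show whether libraries of the same number were prepared together. STL1, with 96 to 397 reads, is the member whose precision depth limits most. Causes were not tested.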
